A study of Mus musculus with 6 samples.

Results

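The genes of the proteasome were examined in the hindlimb gastrocnemius (GAS) muscles of young Kvβ2 KO and WT mice. They were taken as every entry of the expression table whose symbol starts with Psma to Psmg followed by a number, with the entries marked as pseudogenes left out. The rule gave 51 entries with 49 symbols, out of 37979 entries with 34616 symbols, and it uses names and no measured value. Of the 51 entries, 48 passed the filter on low values, a mean of at least 0.5 FPKM (the fragments on a gene divided by its length in kilobases and by the depth of the library) over the 6 libraries, and were tested among 12334 entries. One of them, *Psmc3ip*, matches the rule but encodes a partner of meiotic recombinases and no part of the proteasome.

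Total RNA was extracted from male mice, 20 weeks of age, and its polyadenylated part was sequenced, with 3 WT and 3 KO libraries, 1 per mouse, carrying the replicate numbers 1, 7 and 8 in each genotype. WT mice and Kvβ2-/- mice came from interbred Kvβ2+/- mice, the deletion of *Kcnab2* (Kvβ2) was present in the whole body, and no mouse was treated. The comparison asks how the RNA of the muscle differed between the genotypes. *Kcnab2*, the targeted gene, had 0.233, 0.10 and 0.110 FPKM in the WT libraries, given here and throughout in the order of replicates 1, 7 and 8. In KO it was listed at 0 but for 0.0151 FPKM in KO replicate 7. From the steps of low FPKM values the libraries were estimated to hold 13960000 to 20140000 fragments, fewer in each KO than in each WT library, so 1 fragment on a kilobase was worth 0.0497 to 0.0716 FPKM. All 8 skeletal muscle fiber markers checked were detected, at a summed 31676 to 46719 FPKM in WT and 47894 to 52803 FPKM in KO.

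The proteasome degrades proteins that carry ubiquitin chains. Its 20S core is a barrel of outer alpha rings, which form the gate, and inner beta rings, which hold the proteolytic sites. The 19S regulatory particle on its ends has a base with a ring of ATPases that unfold substrates, and a lid that removes ubiquitin. In interferon-exposed and immune cells the catalytic beta subunits are replaced by the immunoproteasome subunits. In skeletal muscle the proteasome is known for the breakdown of myofibrillar proteins during atrophy.

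No tested proteasome gene passed an adjusted p of 0.05 in limma in either direction. Over all tested entries 0.251% were called higher and 0.073% lower in KO, which is 31 and 9 entries. At an unadjusted p under 0.05, 5 members were higher in KO (*Psmb5*, *Psmd3*, *Psmd4*, *Psmb10* and *Psmb6*) and 4 were lower (*Psma3*, *Psma4*, *Psmd6* and *Psmd12*). These are 10.4% and 8.33% of the tested members, beside a background of 15.3% higher and 10.9% lower over all tested entries. The 3 KO libraries all lay above the 3 WT libraries for 7 members, and all below them for 9 members. That is 14.6% and 18.8% of the tested members, against 18.3% and 16.2% of all tested entries. The shares of the members were thus near or under the background. Since only 3 libraries stood in each group, the smallest p that an exact permutation test can give is 0.1. Counting both directions, 18 members had a higher and 30 a lower mean in KO, and the median log2 fold change was -0.058, beside 0.010 over all tested entries. The median was -0.082 and -0.072 under the other 2 scalings of the libraries, and 0.019 without KO replicate 7.

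**Figure D1:**
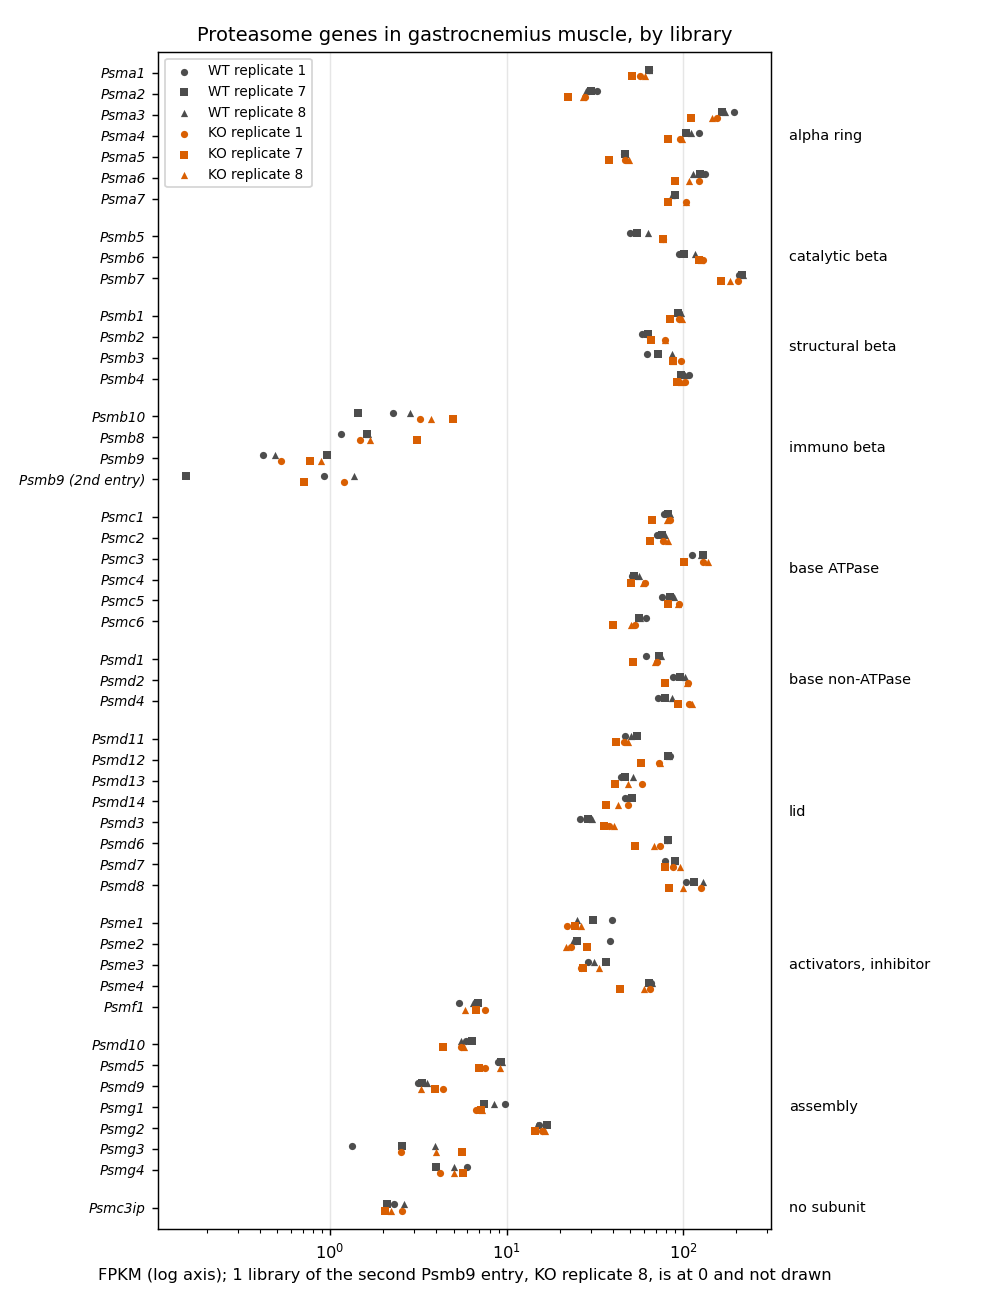
FPKM (x axis, log scale) of each tested proteasome gene (y axis, grouped by role) in the 3 WT (grey) and 3 KO (orange) libraries, with circles for replicate 1, squares for replicate 7 and triangles for replicate 8. The core and 19S genes lie between 22.4 and 217.7 FPKM, and the immunoproteasome genes lie below 5 FPKM in every library.

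The sequences of 6 members are shown first, since the members with the lowest unadjusted p differed in base composition. Each is the first 90 coding bases on the coding strand from the start codon, from GENCODE vM21 (GRCm38), with G and C in capitals. The first 3 were higher and the last 3 lower in KO at an unadjusted p under 0.05.
Psmb5: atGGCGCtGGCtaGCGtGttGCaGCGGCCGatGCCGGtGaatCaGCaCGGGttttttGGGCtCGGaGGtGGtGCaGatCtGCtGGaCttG
Psmd3: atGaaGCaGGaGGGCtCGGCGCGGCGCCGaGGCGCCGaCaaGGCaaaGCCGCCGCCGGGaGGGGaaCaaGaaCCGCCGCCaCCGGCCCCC
Psmd4: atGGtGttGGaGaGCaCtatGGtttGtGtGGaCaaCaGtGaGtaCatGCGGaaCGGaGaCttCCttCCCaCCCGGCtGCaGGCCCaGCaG
Psma3: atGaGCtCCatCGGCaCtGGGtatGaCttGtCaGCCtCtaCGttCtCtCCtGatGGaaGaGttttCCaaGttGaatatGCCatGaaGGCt
Psma4: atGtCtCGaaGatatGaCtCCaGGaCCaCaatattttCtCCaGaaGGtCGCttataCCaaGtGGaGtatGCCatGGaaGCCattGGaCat
Psmd6: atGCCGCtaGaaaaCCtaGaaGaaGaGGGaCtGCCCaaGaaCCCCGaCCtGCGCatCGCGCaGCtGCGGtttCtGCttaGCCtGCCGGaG
Over the whole coding sequence, G and C made up 57.8% of *Psmb5*, 57.4% of *Psmd3* and 54.6% of *Psmd4*. They made up 42.4% of *Psma3*, 44.7% of *Psma4* and 46.7% of *Psmd6*. At the third codon position the share was 66.3%, 72.6% and 61.7% in the first 3, and 36.5%, 46.0% and 53.7% in the last 3. In the 90 bases shown it was 61.1%, 75.6% and 56.7%, and 47.8%, 44.4% and 60%. The stretch of *Psmd6* was thus richer in G and C than that of *Psmd4*, unlike the whole coding sequences.

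The same held across the members. The GC content of a gene's annotated transcripts and its log2 fold change, KO against WT, had a Spearman rho of 0.667 over 47 tested member symbols. Over the 12193 tested genes of known GC content rho was 0.702. Genes are not independent replicates, and all of these points come from the same 6 libraries, so rho is given as a description. None of the 8 members under 45% GC had a higher mean in KO, and 1 of the 15 from 45% to 50% did. From 50% to 53% GC 9 of 13 members were higher, and at 53% or more 8 of 11. The median log2 fold changes of these 4 classes were -0.23, -0.16, 0.11 and 0.24 for the members, and -0.30, -0.11, 0.075 and 0.39 for all tested genes in the same classes. The members therefore followed the course of all genes. Fold changes below are set beside their values after each library was corrected for GC content. This correction takes out any difference between libraries that runs with GC content, whatever its origin. A smaller value after it therefore does not tell the origin of the difference, which was not tested. After that correction 24 members had a higher and 24 a lower mean in KO, with a median log2 fold change of -0.00094, and 16 of the 48 had changed sign. At an unadjusted p under 0.05, 2 members were then higher (*Psmb2* and *Psmc2*) and 1 was lower (*Psme1*), beside 5.77% higher and 5.27% lower of the 12193 genes in that fit, and none passed the adjusted threshold.

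**Figure D2:**
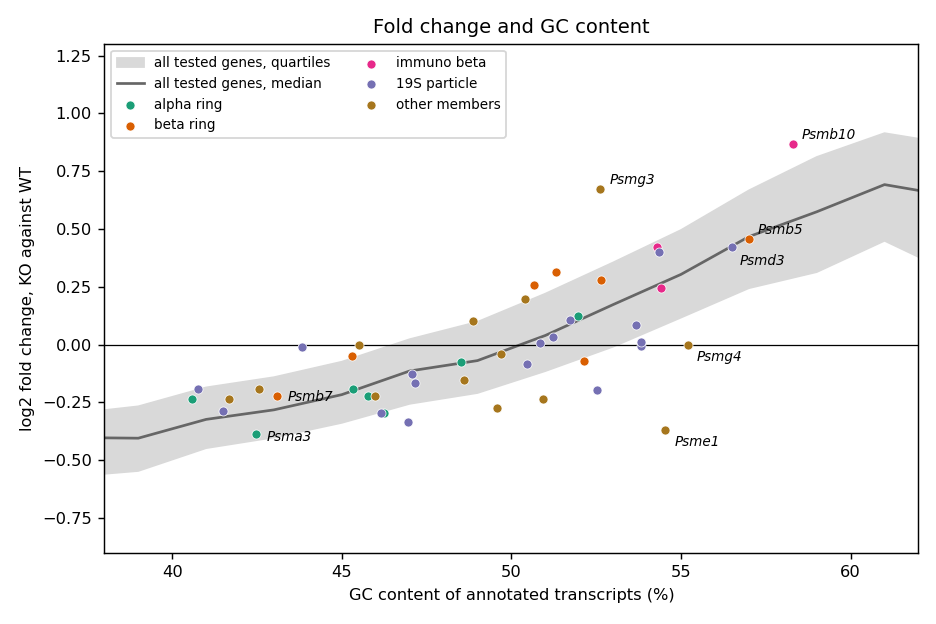
Log2 fold change, KO against WT (y axis), against the GC content of the annotated transcripts in percent (x axis). Coloured points are tested proteasome genes by role, without the second *Psmb9* entry. The grey line and band are the median and quartiles of all tested genes in classes of 2% GC. Most members lie on or near the band, from the genes of low GC content on the left to *Psmb10*, of the highest, on the right, and *Psme1* and *Psmg3* are among those outside it.

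The alpha ring was lower in KO for 6 of its 7 tested genes, with a median log2 fold change of -0.22, and of -0.13 without KO replicate 7. Its most abundant gene, *Psma3*, was at 194.4, 166.1 and 172.7 FPKM in WT and at 155.8, 110.1 and 145.1 FPKM in KO. All KO libraries lay below all WT libraries, a 1.31-fold lower level with a log2 fold change of -0.39 (SE 0.15, limma adjusted p = 0.16), and -0.090 after GC correction. *Psma4* was at 123.4, 104.0 and 110.7 FPKM in WT and at 95.5, 81.8 and 98.4 FPKM in KO, with a log2 fold change of -0.30 (SE 0.12, limma adjusted p = 0.17), and -0.14 after GC correction. The groups did not overlap for *Psma1* and *Psma2* either, at log2 fold changes of -0.19 and -0.24 that were 0.0084 and 0.11 after GC correction. *Psma7*, with the highest GC content of the ring, was the single alpha gene with a higher mean in KO, at 0.12, and 0.019 after GC correction. After GC correction the 7 values ran from -0.14 to 0.11 with a median of 0.0054, and 4 were higher. The last alpha gene, *Psma8*, which encodes the alpha subunit of the testis proteasome, was at 0.0316 FPKM in WT replicate 7, at 0.118 FPKM in KO replicate 7 and listed at 0 elsewhere. Both values rest on very few fragments.

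Of the constitutive beta ring, *Psmb5*, *Psmb6* and *Psmb7* carry the proteolytic sites. *Psmb5*, the chymotrypsin-like subunit, lies on chromosome 14 at 54614119 to 54618022 (GRCm38), beside *Psmb11*. It was at 49.8, 54.7 and 63.5 FPKM in WT and at 76.5, 76.5 and 76.4 FPKM in KO. The KO libraries were nearly equal and all above WT, 1.37-fold higher with a log2 fold change of 0.46 (SE 0.12, limma adjusted p = 0.084). After GC correction the log2 fold change was 0.010. *Psmb6*, the caspase-like subunit, was at 95.1, 101.0 and 116.6 FPKM in WT and at 129.8, 122.8 and 125.6 FPKM in KO, again without overlap, with a log2 fold change of 0.28 (SE 0.11, limma adjusted p = 0.17) and of 0.14 after GC correction. *Psmb7*, the trypsin-like subunit and the most abundant member, went the other way. Its level was 207.0, 215.4 and 217.7 FPKM in WT and 205.4, 163.0 and 183.1 FPKM in KO, where KO replicate 1 lay just under the lowest WT library. The log2 fold change was -0.22 (SE 0.11, limma adjusted p = 0.26), and it changed sign to 0.062 after GC correction.

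The structural beta genes were split in the same manner. *Psmb3* was at 62.8, 71.6 and 86.7 FPKM in WT and at 97.8, 87.2 and 87.6 FPKM in KO. The groups were separated by less than 1 FPKM, with a log2 fold change of 0.31 (SE 0.14, limma adjusted p = 0.20) and of 0.24 after GC correction. *Psmb2* was also higher in KO without overlap, at a log2 fold change of 0.26 that was 0.23 after GC correction. *Psmb4*, the most abundant of the 4, was at 107.9, 96.8 and 102.4 FPKM in WT and at 102.4, 92.7 and 97.6 FPKM in KO, with overlapping groups and a log2 fold change of -0.069, and -0.18 after GC correction. *Psmb1* was at -0.047 before and 0.15 after it. Over the 7 constitutive beta genes the median log2 fold change was 0.26, and 0.14 after GC correction. A higher mean in KO was found for 4 of the 7 before and for 6 after GC correction, as *Psmb1* and *Psmb7* changed sign.

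Within a core particle alpha and beta subunits occur in equal number, so their summed RNA levels were set side by side, a comparison chosen after the values were seen. The 7 alpha genes summed to 682.6, 626.0 and 622.7 FPKM in WT and to 609.1, 476.3 and 591.8 FPKM in KO, all KO libraries below WT. The 7 constitutive beta genes summed to 675.2, 696.4 and 748.4 FPKM in WT and to 784.6, 692.3 and 746.9 FPKM in KO, with overlap. The ratio of alpha to beta RNA was 1.01, 0.899 and 0.832 in WT and 0.776, 0.688 and 0.792 in KO. Every KO library thus had less alpha RNA per beta RNA than every WT library. The gap between the nearest libraries, 0.832 and 0.792, was smaller than the spread within WT. The tested alpha genes had a median GC content of 45.8% and the beta genes of 51.3%. After GC correction their median log2 fold changes were 0.0054 and 0.14, and no corrected ratio of the sums was computed.

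**Figure D3:**
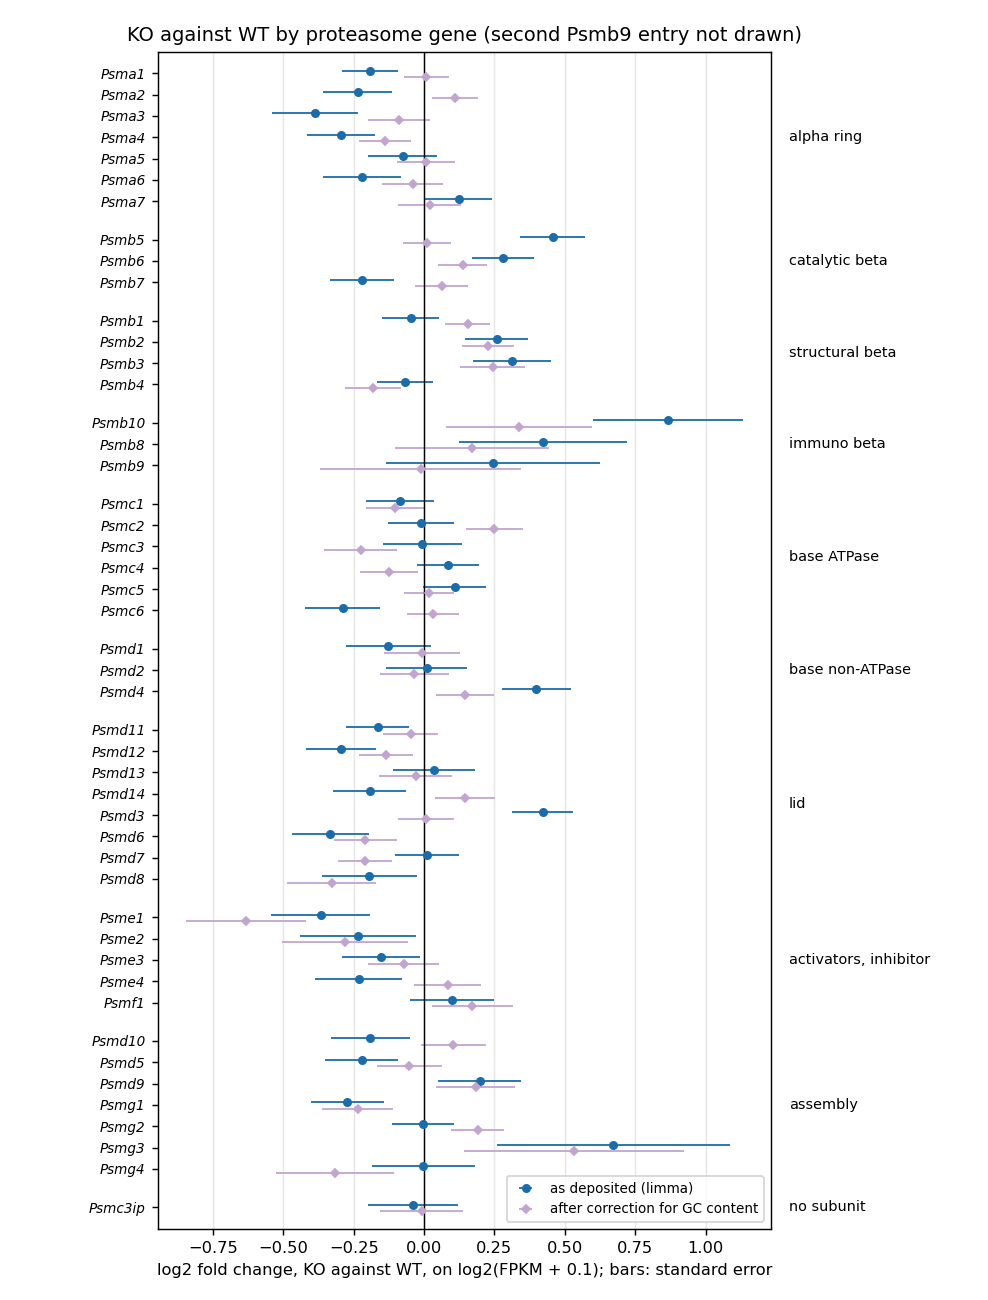
Log2 fold change, KO against WT (x axis), of the tested proteasome genes (y axis, by role), with circles for the values as deposited and diamonds after GC correction. Bars are the standard error, and the second *Psmb9* entry is not drawn. Of the alpha ring genes, 6 of 7 lie left of 0, and their median is near 0 after correction, as *Psmb5* and *Psmd3* do from the right.

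The immunoproteasome genes were low in this muscle. *Psmb10*, which replaces *Psmb7*, was at 2.28, 1.44 and 2.82 FPKM in WT and at 3.23, 4.97 and 3.73 FPKM in KO. The KO libraries were all higher, by 1.82-fold, with a log2 fold change of 0.87 (SE 0.27, limma adjusted p = 0.11), the largest of the tested members. It was 0.34 after GC correction, with the highest GC content of the tested members at 58.3%, and 0.70 without KO replicate 7. *Psmb8*, which replaces *Psmb5*, was at 1.15, 1.63 and 1.63 FPKM in WT and at 1.47, 3.11 and 1.68 FPKM in KO. Its groups overlapped, and its log2 fold change of 0.42 (SE 0.30, limma adjusted p = 0.39) was 0.17 after GC correction and 0.11 without KO replicate 7. *Psmb9*, which replaces *Psmb6*, is listed under 2 identifiers. The entry ENSMUSG00000024337, above 0 everywhere, was at 0.417, 0.966 and 0.484 FPKM in WT and at 0.525, 0.765 and 0.890 FPKM in KO. The other, ENSMUSG00000092299, was at 0.922, 0.152 and 1.36 FPKM in WT and at 1.20, 0.715 and 0 FPKM in KO. The log2 fold changes of these entries were 0.24 (SE 0.38) and -0.61 (SE 1.06), and -0.012 and -0.87 after GC correction. Both groups overlapped in both entries, fragments of 1 gene may be divided between them, and the first rests on 7.33 to 18.6 fragments per kilobase. *Psmb8* and *Psmb9* both lie on chromosome 17, at 34197721 to 34201454 and 34181987 to 34187764.

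In each library the immunosubunit was set against the subunit it replaces, both per length. *Psmb10* was 1.1%, 0.668% and 1.29% of *Psmb7* in WT and 1.57%, 3.05% and 2.04% in KO. The log2 ratio differed by 1.12 between KO and WT (two-sided exact permutation p = 0.1, which 3 against 3 libraries cannot go below, and 0.3 adjusted over the 3 ratios), and by 0.28 after GC correction (exact p = 0.6). *Psmb8* was 2.31%, 2.97% and 2.58% of *Psmb5* in WT and 1.93%, 4.06% and 2.20% in KO, a difference of -0.012 in the log2 ratio (exact permutation p = 1.0). That difference was 0.16 after GC correction and -0.34 without KO replicate 7. For the first *Psmb9* entry over *Psmb6* the log2 ratio differed by 0.012 (exact permutation p = 1.0), and by -0.15 after GC correction. For the sum of both entries it differed by -0.37 (exact permutation p = 0.4). With the first *Psmb9* entry, the 3 immunosubunits together made up 1.08%, 1.07% and 1.23% of the catalytic subunit RNA in WT and 1.25%, 2.38% and 1.61% in KO. KO replicate 7 was highest, and KO replicate 1 lay just above the highest WT library. With both entries, a count added after the values were seen, the shares were 1.34%, 1.11% and 1.56% in WT and 1.54%, 2.57% and 1.61% in KO, and the groups overlapped.

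Leukocyte markers were examined beside these values, since leukocytes express immunoproteasome genes. Of 12 markers 11 were found, 9 were tested and 8 of those had a higher mean in KO. None of the 9 was at an unadjusted p under 0.05 in limma, beside 15.3% higher and 10.9% lower of all tested entries. All KO libraries lay above WT for 1 of them, beside 18.3% of all tested entries. The summed level of the 11 markers was 45.1 to 61.7 FPKM in WT and 52.1 to 102.8 FPKM in KO. The highest sum was in KO replicate 7, the library that was also highest for *Psmb8* and *Psmb10*. *Ptprc*, carried by nucleated blood cells, was at 0.315 to 0.489 FPKM, and the B cell marker *Cd79a* was listed at 0 in every library but KO replicate 7. The part of these cells in the immunosubunit levels was not tested. In bulk RNA fewer cells of a type and less RNA per cell cannot be told apart. The thymoproteasome gene *Psmb11* was at 0.0355 FPKM or less in every library.

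**Figure D4:**
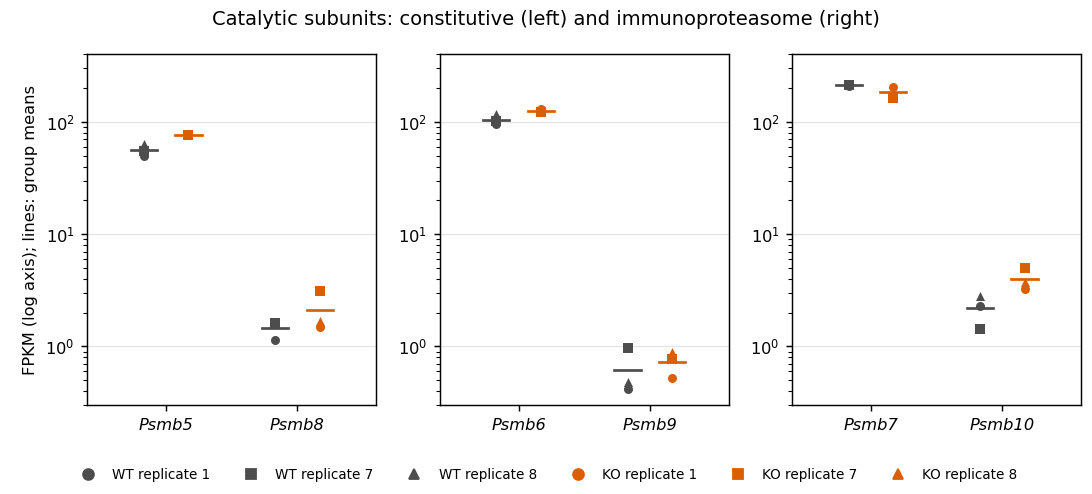
FPKM (y axis, log scale) of each constitutive catalytic subunit and of the immunosubunit that replaces it, in WT (grey) and KO (orange) libraries; symbols give the replicate and short lines the group means. The immunosubunits lie far below their counterparts in every library, and KO replicate 7 (square) is highest for *Psmb8* and *Psmb10*.

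In the 19S particle 7 of the 17 tested genes were higher and 10 lower in KO. The median log2 fold change was -0.011, and 0.080 without KO replicate 7. After GC correction 6 genes were higher and 11 lower, with a median of -0.034. Among the base ATPases, which unfold the substrate, *Psmc3* was the most abundant, at 112.2, 129.7 and 125.8 FPKM in WT and at 129.0, 101.5 and 138.0 FPKM in KO. KO held both the lowest and the highest library, and the log2 fold change was -0.0062 (SE 0.14), and -0.23 after GC correction. *Psmc6* was the single ATPase gene without overlap, at 61.4, 56.3 and 57.1 FPKM in WT and at 53.5, 39.9 and 50.7 FPKM in KO. Its log2 fold change was -0.29 (SE 0.13, limma adjusted p = 0.21), and 0.032 after GC correction. *Psmc1*, *Psmc2*, *Psmc4* and *Psmc5* lay between -0.085 and 0.11, and between -0.12 and 0.25 after GC correction. *Psmc2*, with 43.8% GC, stood at -0.011 before and at 0.25 after GC correction.

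Of the other base genes, *Psmd4*, a receptor for ubiquitin chains, was at 72.0, 79.1 and 86.8 FPKM in WT and at 108.3, 92.9 and 112.8 FPKM in KO. All KO libraries were higher, by 1.32-fold, with a log2 fold change of 0.40 (SE 0.12, limma adjusted p = 0.11) and of 0.14 after GC correction. *Psmd2*, a scaffold of the base and its most abundant gene outside the ATPases, was at 87.2, 96.2 and 102.8 FPKM in WT and at 106.0, 79.1 and 104.7 FPKM in KO. Its groups overlapped, and its log2 fold change of 0.0086 changed sign with the scaling of the libraries. *Psmd1* was at -0.13, and -0.0072 after GC correction.

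In the lid 3 of the 8 tested genes were higher and 5 lower in KO, with a median log2 fold change of -0.18, and of -0.068 without KO replicate 7. After GC correction 2 were higher and 6 lower, with a median of -0.091. *Psmd3*, a structural lid subunit, was at 26.0, 29.0 and 30.3 FPKM in WT and at 38.2, 35.6 and 40.4 FPKM in KO. The groups were well apart, 1.34-fold higher in KO with a log2 fold change of 0.42 (SE 0.11, limma adjusted p = 0.088), and the difference was 0.0084 after GC correction. *Psmd6*, also structural, was at 81.2, 81.8 and 81.2 FPKM in WT and at 73.6, 53.4 and 68.7 FPKM in KO. The WT libraries were nearly equal and all above KO, at a log2 fold change of -0.33 (SE 0.14, limma adjusted p = 0.18) that was -0.21 after GC correction. *Psmd12* was at 84.7, 82.1 and 82.7 FPKM in WT and at 72.8, 57.5 and 74.3 FPKM in KO, lower without overlap, with a log2 fold change of -0.30 (SE 0.12, limma adjusted p = 0.19) and of -0.14 after GC correction. *Psmd8*, the most abundant lid gene, was at 104.4, 115.9 and 129.1 FPKM in WT and at 126.1, 83.0 and 99.6 FPKM in KO, with overlap and a log2 fold change of -0.19 that was -0.33 after GC correction. *Psmd14*, the deubiquitinase of the lid, was at -0.19 before and 0.15 after GC correction, and a second entry under its symbol was listed at 0 in every library.

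Of the other activators, *Psme1* and *Psme2* encode the interferon-responsive PA28 alpha and beta subunits. *Psme1* was at 39.7, 30.7 and 25.1 FPKM in WT and at 22.1, 24.5 and 26.2 FPKM in KO. WT replicate 1 was highest and the groups overlapped by a single library, with a log2 fold change of -0.37 (SE 0.17, limma adjusted p = 0.22) that was -0.20 without WT replicate 1. Here GC correction enlarged the difference, to -0.63 (limma unadjusted p = 0.020, adjusted p = 0.37), and the GC content was 54.5%. *Psme2* was at 38.8, 25.1 and 23.9 FPKM in WT and at 23.1, 28.6 and 21.6 FPKM in KO, also highest in WT replicate 1, with a log2 fold change of -0.23, and -0.28 after GC correction. Without WT replicate 1 it was -0.013. *Psme4*, the PA200 activator, was at 65.9, 63.8 and 66.5 FPKM in WT and at 65.2, 44.0 and 60.0 FPKM in KO, with a log2 fold change of -0.23 that changed sign to 0.084 after GC correction. *Psme3* and the inhibitor *Psmf1* were at -0.15 and 0.10, and at -0.073 and 0.17 after GC correction.

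The 7 assembly chaperones, which bring the rings and the base together and leave the finished particle, had a median log2 fold change of -0.0032. *Psmg2*, the most abundant, was at 15.3, 16.99 and 14.8 FPKM in WT and at 15.9, 14.5 and 16.5 FPKM in KO, with overlapping groups. Its partner *Psmg1* was lower in all KO libraries, at a log2 fold change of -0.27, and -0.24 after GC correction. *Psmg3* was at 1.33, 2.56 and 3.91 FPKM in WT and at 2.53, 5.61 and 3.996 FPKM in KO. Its log2 fold change of 0.67 had a wide error (SE 0.41, limma adjusted p = 0.33). It was 0.53 after GC correction, 0.41 without KO replicate 7, 0.28 without WT replicate 1 and 1.02 without WT replicate 8. *Psmg4*, the partner of *Psmg3*, was at -0.0022 before and -0.32 after GC correction. The base chaperones *Psmd5*, *Psmd9* and *Psmd10* were at -0.22, 0.20 and -0.19, and at -0.052, 0.18 and 0.10 after it. *Psmc3ip*, no proteasome part, was at 2.29, 2.10 and 2.62 FPKM in WT and at 2.56, 2.05 and 2.20 FPKM in KO, a log2 fold change of -0.040.

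KO replicate 7 stood apart from the other libraries for these genes. It was the lowest of the KO libraries for 35 of the 48 tested members, beside 43.4% of all tested entries, among them 17 of 17 genes of the 19S particle and 13 of 14 genes of the core. It was the lowest of all 6 libraries for 28 members, beside 27.8% of all tested entries. The median log2 deviation of core and 19S genes from the mean of the 6 libraries was -0.23 in KO replicate 7, against 0.094 and 0.064 in KO replicates 1 and 8 and -0.052, 0.047 and 0.074 in WT replicates 1, 7 and 8. Over all tested entries the deviation of KO replicate 7 was -0.013. This library also held the highest summed leukocyte and adipocyte markers. The 4 adipocyte markers, all with a higher mean in KO, summed to 6.64 to 31.3 FPKM in WT and 38.04 to 143.0 FPKM in KO, and 3 red blood cell markers to 64.9 to 98.2 FPKM in WT and 112.5 to 228.4 FPKM in KO. The part of these cells in the proteasome levels was not tested. Without it 26 members had a higher and 22 a lower mean in KO, and 6 were higher and 0 lower at an unadjusted p under 0.05, beside 11.3% higher and 6.88% lower of all tested entries in the same fit.

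**Figure D5:**
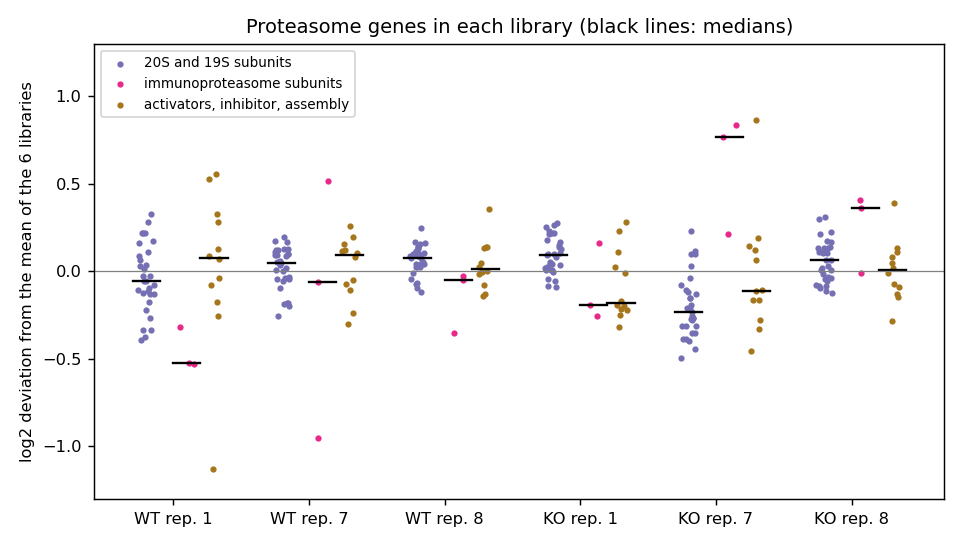
Log2 deviation of each tested proteasome gene from its mean over the 6 libraries (y axis), by library (x axis), with black lines at the medians; the second *Psmb9* entry is not drawn. The core and 19S genes have a median of -0.23 in KO replicate 7, where *Psmb8* and *Psmb10* are high.

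Genes around the proteasome with other symbols were read from the same fit, and none of the 49 tested passed the adjusted threshold. Of 11 parts and partners 2 had a higher and 9 a lower mean in KO. *AI314180* (Ecm29), which tethers core and regulatory particle, was at 68.0, 64.7 and 62.9 FPKM in WT and at 50.3, 42.2 and 51.0 FPKM in KO, with a log2 fold change of -0.45 (limma adjusted p = 0.081) and of -0.19 after GC correction. *Adrm1*, a ubiquitin receptor of the base, was the reverse at 0.31 (limma adjusted p = 0.12), and -0.15 after GC correction. Of 11 genes of transcriptional control, *Nfe2l1*, which activates proteasome genes when proteasomes are impaired, was at 105.8, 127.4 and 118.7 FPKM in WT and at 149.0, 152.6 and 152.6 FPKM in KO. The groups were apart at a log2 fold change of 0.37 (limma adjusted p = 0.098), and 0.11 after GC correction. *Ngly1*, which processes the Nfe2l1 protein, was at -0.39, and -0.075 after GC correction.

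Among the 6 ubiquitin and E1 genes 3 had a higher and 3 a lower mean in KO. *Rps27a*, a fusion of ubiquitin and a ribosomal protein, was at 317.2, 256.5 and 244.5 FPKM in WT and at 215.9, 202.4 and 226.4 FPKM in KO. All KO libraries were lower, with a log2 fold change of -0.34 (limma adjusted p = 0.16) and of -0.21 after GC correction. Of the 9 shuttle factor and p97 genes, 5 had a higher and 4 a lower mean, and *Nsfl1c*, a cofactor of p97, was at 0.32 without overlap, and 0.28 after GC correction. Among the 12 tested genes of class I antigen processing and interferon response, 7 had a higher and 5 a lower mean in KO. *Tap2*, a subunit of the transporter for peptides that proteasomes make, was at 1.18, 1.09 and 1.71 FPKM in WT and at 2.14, 2.46 and 1.88 FPKM in KO, with a log2 fold change of 0.69 (limma adjusted p = 0.12) and of 0.18 after GC correction. *Tapbp*, which loads them onto class I molecules, was at 0.46 (limma adjusted p = 0.085), and -0.072 after GC correction.

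Promoters were searched for the core of the element that Nfe2l1 binds, TGACNNNGC on either strand, in the 300 bases from 250 before to 50 after each gene start (RefSeq, GRCm38.p6). It was present in 6 of 44 promoters of 41 member symbols, or 13.6%, against 12.4% of 32851 promoters. It stood in members on both sides of 0, and these 4 windows show the match in capitals, read on the strand of the gene.
Psmb5: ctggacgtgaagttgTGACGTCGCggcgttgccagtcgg
Psmb6: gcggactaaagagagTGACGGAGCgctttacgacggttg
Psmc6: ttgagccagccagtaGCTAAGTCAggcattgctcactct
Psmd12: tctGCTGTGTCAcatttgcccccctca
The windows lie at chr14:54618019-54618057 (minus), chr11:70525333-70525371 (plus), chr14:45329582-45329620 (plus) and chr11:107479278-107479304 (plus). *Psmb5* and *Psmb6* had higher means in KO, *Psmc6* and *Psmd12* lower. The interferon element core GAAANNGAA was in 7 of 44 member promoters, or 15.9%, and in 8.56% of all. None of these 7 belonged to an immunoproteasome gene. The STAT element TTCNNNGAA was in 6.82% of member promoters and 8.30% of all, and the NF-Y box CCAAT in 34.1% and 37.4%. Among the promoters of immunoproteasome genes, that of *Psmb8* held the STAT element and that of *Psmb9* the CCAAT box. A match describes the letters of a window and no binding.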

How the data were processed

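RNA-seq of GAS muscle from 3 WT and 3 KO mice was used. The authors mapped paired reads of stranded, poly(A)-selected libraries to GRCm38 with TopHat and deposited FPKM values from Cufflinks. Tool versions and the annotation release are not given in the sources used here. FPKM were tested as log2(FPKM + 0.1) with limma 3.58.1 (variance trend, R 4.3.3) for entries with a mean of at least 0.5 FPKM, without covariates, and adjusted by Benjamini-Hochberg over all of them. Fold changes on this scale understate those of low genes. Depth was estimated from low values of genes with 1 transcript, of which 88.3% to 91.8% were whole fragments within 0.15. No 2 libraries shared more than 1 of 14983 values. Positions and GC content came from GENCODE vM21, by symbol for the *Psmb9* entries, whose identifiers are not in it, and for the second *Psmd14* entry. GC correction subtracted a loess curve (span 0.3) from each library's log2 deviations. On simulated data of 12092 genes with 200 changed, limma recovered 60% at a log2 change of 1 and 91% at 2, with 7 and 12 false calls. The simulated noise was independent between genes and held no trend with GC content. The largest log2 fold change of a member was 0.87, so recovery at changes of the members' size was not tested.

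The proteasome genes, the lists and the tests were chosen with earlier results of these data known. Named are *Kcnab2*, *Psmb5* to *Psmb10*, per role the most abundant member and the one with the largest change, the 5 members of lowest p in each direction, members at 0 or under the filter, and up to 2 genes per other list. The other members, with *Ptprc* and *Cd79a*, were named after their values were seen. Some genes of the other lists are not reported here. Ratios were tested by exact permutation. Plots used matplotlib 3.10.9 under Python 3.11.15.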

Additional observations from a re-analysis of the deposited data

How the results depend on the processing

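With 3 libraries per genotype and no batch given, a difference within their spread was not detectable, and immunosubunit genes rest on few fragments. No proteasome gene was called under any alternative except limma array weights. Of the 48 tested members these called 7 higher (*Psmb2*, *Psmb3*, *Psmb5*, *Psmb6*, *Psmb10*, *Psmd3* and *Psmd4*) and 1 lower (*Psmd6*). Over all 12334 tested entries they called 1863 higher and 1284 lower, so such calls were common and not particular to the members. The cause of the following changes was not tested. Against 31 higher and 9 lower genes, a pseudocount of 1 gave 7 and 4, no filter 9 higher, quantile normalization 11 higher, no variance trend 12 higher, GC content correction 7 higher, entries at 0 left out 1 and 0, and leaving out 1 library 6 to 19 higher and 5 to 19 lower.

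The count of members at an unadjusted p under 0.05, 5 higher and 4 lower, was 2 and 1 after GC content correction, 0 lower without a variance trend and 7 lower with array weights. It was 3 to 7 higher and 0 to 6 lower with 1 library left out: 0 lower without KO replicate 7 or without WT replicate 1, 1 without WT replicate 8, and 3 higher and 2 lower without WT replicate 7. The replicate block gave 6 genes called higher and 1 member lower at an unadjusted p. The replicate block with GC content correction gave 6 genes higher, and 0 members higher and 1 lower. Shares over all tested entries are given above for GC content correction and for the fit without KO replicate 7. The other member counts at an unadjusted p have no such share beside them, and describe no trait of the members. Same-numbered libraries had correlations of -0.025, -0.080 and 0.034, so the numbers were not taken as pairs, and not every library correlated best with its own number. The log2 ratio of *Psmb10* to *Psmb7* moved from 1.12 to 0.28 with GC content correction.

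Of the 48 tested members, 16 changed sign after GC content correction, 7 with array weights, 2 with median-of-ratios scaling, 1 with quantile normalization and 8 without KO replicate 7. Among members named by the rule, signs reversed after GC content correction, with and without the replicate block, for *Psmb7* (0.062), *Psmb9* of the first entry (-0.012), *Psmc6* (0.032), *Psmd2* (-0.034), *Psme4* (0.084) and *Psmg2* (0.19). Among the same members array weights reversed the first *Psmb9* entry (-0.14), *Psmc3* (0.015) and *Psmc3ip* (0.060), and median-of-ratios scaling *Psmd2* (-0.016). With 1 library left out, the second *Psmb9* entry ranged from -1.37 to 0.51, *Psmc3* from -0.096 to 0.13, *Psmd2* from -0.065 to 0.15, *Psmg2* from -0.044 to 0.056 and *Psmc3ip* from -0.13 to 0.043.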
